A study of Mus musculus with 8 samples.

Results

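Neat1 and Malat1 are neighbouring long noncoding RNA genes of mouse chromosome 19 whose transcripts stay in the nucleus. Described here is the open chromatin called at them in adult control liver and not called after hepatocyte inactivation of Dio2. The pair was chosen by the measured area of its regions, since the region with the highest area of the whole series lies in Neat1, so the size of the signal there is a description and was not tested. The deposited rows that overlap either gene or lie within 10 kb of it number 16 of the 8281 regions in both lists. All 16 belong to the 8031 regions of reduced chromatin accessibility (RCAs), which were called open in control liver and overlapped no region called open in Alb-D2KO liver. Such regions are termed lost below, which means not called, whatever signal remained. Of these, 13 lie within 10 kb of Neat1 and 3 within 10 kb of Malat1, and none is near both. The list of 250 regions open in Alb-D2KO liver alone held 0 regions at either gene, against a background of 0.63% of the 55536 annotated genes with such a region in the body or within 10 kb.

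The assay was ATAC-seq, in which a transposase cuts and tags DNA where chromatin is open. Libraries came from nuclei of frozen liver of adult C57BL/6 mice, 4 control and 4 Alb-D2KO, with 50000 nuclei in each. Alb-D2KO mice carry floxed Dio2, the gene of the type 2 deiodinase that converts thyroxine to the active hormone T3, and a Cre recombinase driven by the albumin promoter, which acts in hepatocytes and leaves the other cells of the liver unedited. The controls carry the word cre in their labels, and the study describes the controls of its liver expression data as littermates that express Cre, so both groups are taken to carry Cre. Nuclei of the whole liver were pooled across cell types, and fewer nuclei of a type and less open chromatin per nucleus cannot be told apart. Open regions were called on grouped libraries, so every value below is 1 pooled value with no replicate error, and no difference between genotypes could be tested. The lists do not give the depth of a library. They also give no Alb-D2KO signal at an RCA, so a region just under the caller's threshold and a closed one cannot be told apart. Stretches that the authors blacklisted, from regions called in single libraries, are not in the lists, and whether any lies at these genes was not tested. Of 10 hepatocyte markers, 6 had an RCA in the gene body, among them Hnf4a, Apoa1 and Alb, and of 10 markers of other liver cells Pecam1 and Stab2 had one, against 15.6% of protein-coding genes. Within 10 kb the counts were 9 of 10 and 2 of 10, against 25.0%. At Dio2 itself, on chromosome 12 from 90724552 to 90738438, neither list held a region in the body or within 10 kb, so the lists do not check the deletion.

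Neat1 RNA is the scaffold of paraspeckles, nuclear bodies that gather RNA-binding proteins such as NONO, SFPQ and PSPC1 and hold back certain RNAs and proteins. The gene makes a short polyadenylated isoform and, when that polyadenylation site is passed over, a long isoform that is needed to build the bodies. Malat1 RNA is among the most abundant nuclear transcripts of many tissues and collects in nuclear speckles, which store splicing factors. Both long RNAs lack a poly(A) tail. RNase P cuts them in front of a tRNA-like small RNA, and the new end is protected by a triple helix of U-rich tracts and an A-rich tract.

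Both genes are read from the minus strand. Neat1 (ENSMUSG00000092274.3) spans chr19:5824708-5845478 on the mm10 build, 20771 bp with no intron in its full-length transcript, and Malat1 (ENSMUSG00000092341.3) spans chr19:5795690-5802672, 6983 bp. Malat1 lies downstream, and 22035 bp separate the end of Neat1 from the start of Malat1. The shared 3′ end design is shown because an RCA covered it in Neat1 and none did in Malat1. The last 120 bases of the long Neat1 RNA (chr19:5824708-5824827) and the 120 bases in front of the Malat1 small RNA (chr19:5795982-5796101) are printed 5′ to 3′ as DNA from the minus strand, with capitals on the runs of at least 9 bases that both share:
Neat1 end: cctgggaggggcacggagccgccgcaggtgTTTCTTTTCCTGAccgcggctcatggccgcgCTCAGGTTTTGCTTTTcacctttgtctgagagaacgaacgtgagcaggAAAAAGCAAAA
Malat1 end: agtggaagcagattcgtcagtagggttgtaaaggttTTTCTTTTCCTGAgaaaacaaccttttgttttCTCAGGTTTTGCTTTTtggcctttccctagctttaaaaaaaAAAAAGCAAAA
The shared runs are 16, 13 and 11 bases long. The first pair are rich in T, which is U in the RNA, and the last is the A-rich run that ends both sequences. The small RNAs that follow, Gm27702 in the GENCODE annotation for Neat1 (chr19:5824652-5824707, 56 bases) and Mascrna in RefSeq for Malat1 (chr19:5795924-5795981, 58 bases), aligned with 40 identical bases, 71.4% of the Neat1 one. They are given in lower case, with no part marked:
Neat1 small RNA: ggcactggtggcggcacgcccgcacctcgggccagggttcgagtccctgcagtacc
Malat1 small RNA: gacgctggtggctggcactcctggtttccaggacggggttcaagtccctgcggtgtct

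**Figure D1:**
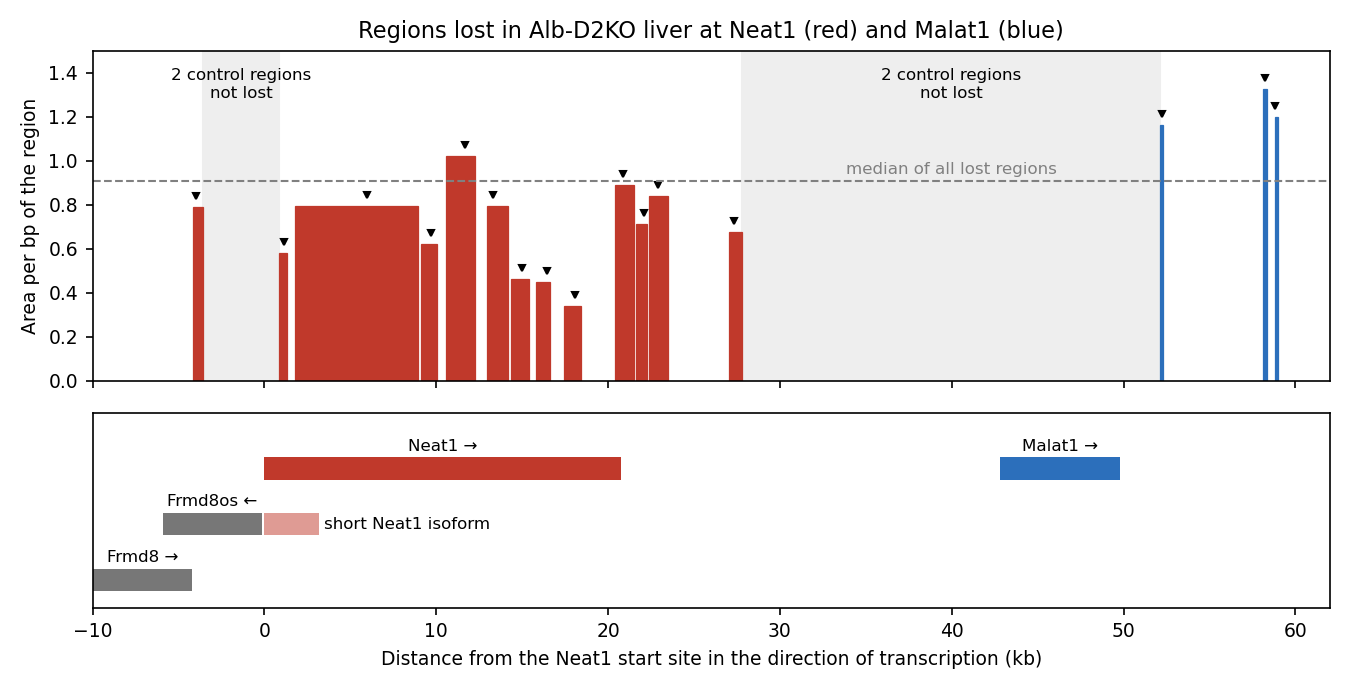
Regions lost in Alb-D2KO liver along the stretch from 10 kb upstream of Neat1 to 10 kb past Malat1, drawn by distance from the Neat1 start site (kb, in the direction of transcription). Bar width is the region's width, bar height its area per bp, triangles mark summits, the dashed line is the median of all 8031 RCAs (0.909), and grey bands span the 2 gaps in the list that hold 2 control regions each that were not lost; genes are drawn below. The 12 regions from just inside Neat1 to 7011 bp past its end follow each other, while the body of Malat1 has none.

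Neat1 was called open along most of its length in control liver, in regions that were not called in Alb-D2KO liver. How much signal Alb-D2KO liver kept there is not known. RCAs overlapped its body 9 times and covered 14585 bp, 70.2% of the gene. The share of all annotated genes with any RCA in the body was 7.74%, and that of long noncoding genes 6.82%. Among the 4296 genes with an RCA, the median gene had 1 RCA and 1.24% of its body covered. Of 24421 genes of at least 5 kb, Neat1 was the 1 gene with 50% or more of its body covered. Among the 37100 genes of at least 1 kb there were 6, and 5 of them were short, such as Rnf186 (71.2% of 1249 bp) and Apoa1, the gene of the main HDL apolipoprotein (64.9% of 1887 bp).

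**Figure D2:**
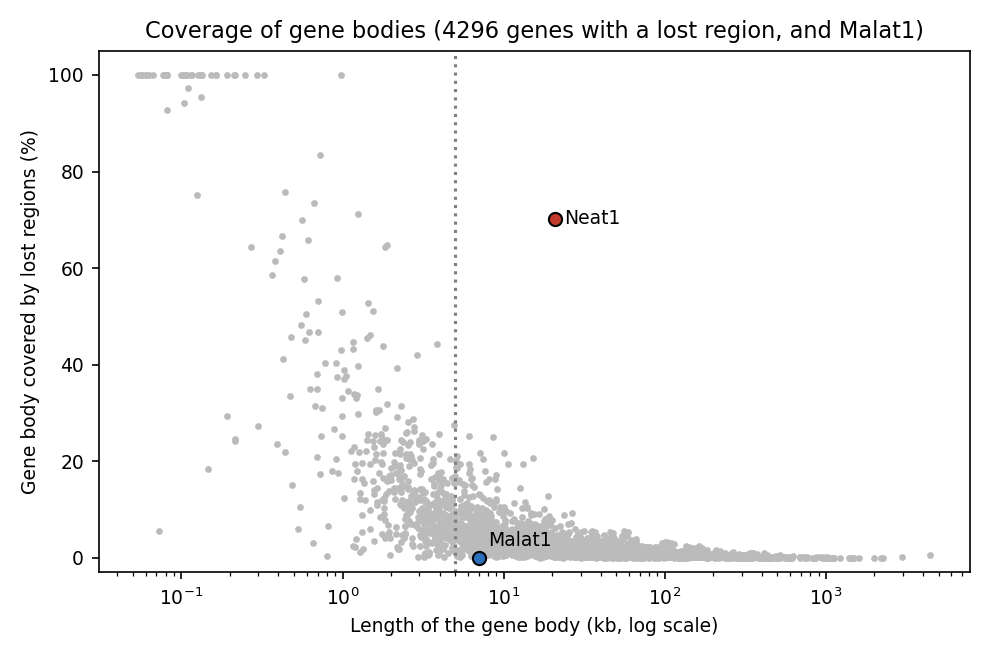
Share of the gene body covered by RCAs (%) against gene length (kb, log scale) for the 4296 genes with an RCA (grey, Neat1 in red), with Malat1 (blue, no RCA) added. To the right of the dotted line at 5 kb, Neat1 at 70.2% stands apart from every other gene, all of which are under 50%.

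The widest region ran from 5836517 to 5843698 on chromosome 19 and was 7182 bp wide, against 3063 bp for the next widest RCA. Its area under the curve of −log10 p was 5697, against 2482 for the next RCA and a median of 278 over all RCAs. Width made this area, since the area per bp was 0.793, below the median of 0.909 over all RCAs, and 64.7% of the RCAs had a higher one. At the summit, 5938 bp into the gene, −log10 q was 3.74, which 6.85% of the RCAs exceeded. The short isoform ended 1391 bp inside the region, measured from the edge nearest the gene start. The region covered that isoform's polyadenylation site, and then ran on into sequence that the long isoform alone contains. Around the 3′ end of the short isoform the sequence is shown because the choice between the isoforms is made there (chr19:5842277-5842376, minus strand, the hexamer AATAAA in capitals). The hexamer ends 14 bases before the annotated end:
Neat1 short isoform end: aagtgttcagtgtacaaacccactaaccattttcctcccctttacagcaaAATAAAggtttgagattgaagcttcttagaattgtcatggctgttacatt

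The next region downstream in order of area, from 5833243 to 5834914, had an area of 1706, the fourth highest of all RCAs. It was 1672 bp wide, its area per bp of 1.02 was the highest of the RCAs near Neat1, and its summit −log10 q of 3.96 ranked 195 of 8031. Its summit lay 11662 bp into the gene. The region that crossed the end of Neat1, from 5823959 to 5825073, had an area of 992 over 1115 bp and ranked 13 among all RCAs. It covered the cleavage site with the shared runs printed above and the whole of the small RNA, and its summit, at 5824638, fell 14 bp beyond the last base of the small RNA. Toward the 3′ end of the gene, the region from 5831316 to 5832505 had an area of 945, the one from 5830106 to 5831128 had 472, the one from 5828866 to 5829683 had 367 and the one from 5827056 to 5828032 had 333. The last of these had the lowest area per bp of the run, 0.341, and a summit −log10 q of 2.36, which ranked 7999 of 8031. Between the 2 strongest regions, the one from 5835421 to 5836366 had an area of 586.

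The region nearest the start of Neat1 had the lowest area of its body. It ran from 5844197 to 5844607, 871 bp inside the gene, with an area of 239 and a summit −log10 q of 2.61. The start site itself was not covered. From that region to the next RCA upstream, 3585 bp before the start, no RCA lay in 4455 bp, yet the caller's running number skipped 2 control regions there. A skipped number was read as an open region of control liver that is not in the list of RCAs because it overlapped one of Alb-D2KO liver. The positions of these 2 regions are not known beyond the gap, which holds the Neat1 start site and that of Frmd8os, an antisense RNA gene read in the other direction. Divided into 5 equal parts from its start, the Neat1 body was covered by RCAs at 67.0%, 100%, 78.8%, 73.0% and 32.3%. Coverage was thus highest in the part after the first and lowest in the last.

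Past the end of Neat1, RCAs continued in sequence with no gene annotated. The region from 5823212 to 5823839 had an area of 448, the region from 5822001 to 5823097 had 920, and the region from 5817697 to 5818421 had 490. Together with the 9 regions of the body they made a run of 12 control regions with consecutive numbers, all lost, over 26911 bp. RCAs covered 66.1% of that span, and their gaps were 114 to 3579 bp long. In the whole list 4669 such runs were found, with a median length of 1 region, and 6 runs had 12 regions or more. The longest, of 17 regions around Apoa1 and Sik3 on chromosome 9, was spread over 181878 bp and covered 9251 bp, against 17784 bp in the run at Neat1. With 0.149% of all RCAs, the run at Neat1 held 0.609% of their bases and 0.530% of their summed area.

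At Malat1, no RCA overlapped the body, the start or the 3′ end. The nearest RCA upstream of Malat1 was 15025 bp from its start and is the last region of the run at Neat1, and the nearest downstream was 2341 bp past its end. This gap of 24347 bp held 2 skipped numbers, so 2 control regions somewhere in it, not further located, were read as not lost. The 3 RCAs within 10 kb of Malat1 were all downstream and intergenic. From the gene outwards they ran from 5793167 to 5793349 (area 213), from 5787153 to 5787336 (area 244) and from 5786512 to 5786693 (area 218). These were small regions of 182 to 184 bp. The smallest area in the list was 200.004 and the lower quartile 232, so the areas of 213 and 218 lay below that quartile and 244 above it. Having an RCA in the body or within 10 kb was common, at 15.3% of annotated genes.

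From the first to the last RCA within 10 kb of either gene, the caller's numbers ran over 20 control regions, of which 16 were lost and 4 were not. Both ends of this count are RCAs, so a control region not lost that lies beyond them, though within 10 kb, is not counted. The lost share of 80%, which this choice of ends can only raise, stands beside 35.9% of the 22368 control regions numbered in the whole genome. It rests on the run at Neat1. Of the 4 regions not lost, 2 lay in the gap with the Neat1 start and 2 in the gap with Malat1.

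The 2 genes also differed in the shape of their regions. Regions near Neat1 were wide and shallow. Their widths ran from 411 to 7182 bp with a median of 977 bp (n = 13), against 326 bp over all RCAs (quartiles 242 and 437, n = 8031), and in the run of 12 all were wider than that median and 11 were wider than the upper quartile. Only 55 RCAs, 0.685% of the list, were 1000 bp wide or more, and 6 of them were in the run. Area per bp near Neat1 ran from 0.341 to 1.02 with a median of 0.714, and 1 region of the run was above the median of all RCAs. Summit −log10 q ran from 2.36 to 3.96 with a median of 3.18, close to 3.14 over all RCAs, and 6 of the 12 regions of the run were above that value. Near Malat1 the regions were narrow and steep, with areas per bp of 1.16, 1.20 and 1.33 and summit −log10 q of 3.23, 3.27 and 3.53. All 3 were narrower than the lower quartile of all RCAs and higher per bp than their upper quartile of 1.14. No RCA had an area under 200.004, so a region this narrow is listed only if its area per bp is high. These values come from the contrast that chose the genes and carry no test.

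**Figure D3:**
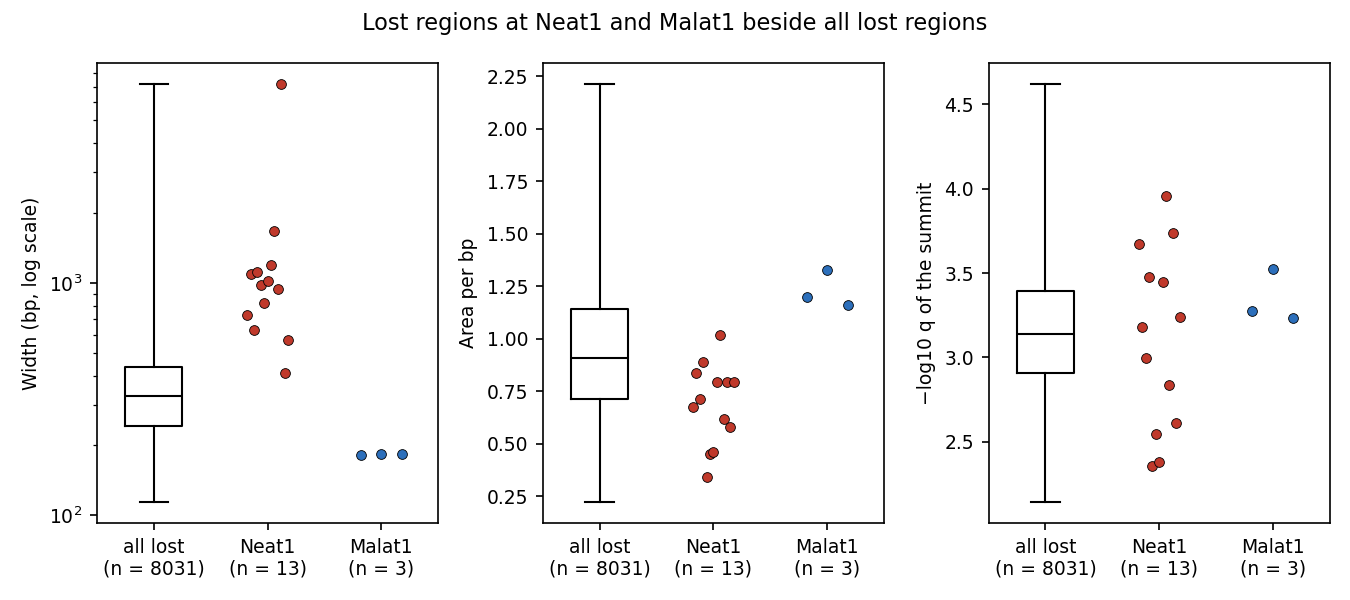
Width (bp, log scale), area per bp and summit −log10 q of the 13 RCAs near Neat1 (red points) and the 3 near Malat1 (blue points) beside all 8031 RCAs (box: quartiles and median, whiskers: lowest and highest). Neat1 regions are wider than the median of 326 bp and lower per bp with 1 exception, and Malat1 regions are 182 to 184 bp wide and above 1.14 per bp.

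**Figure D4:**
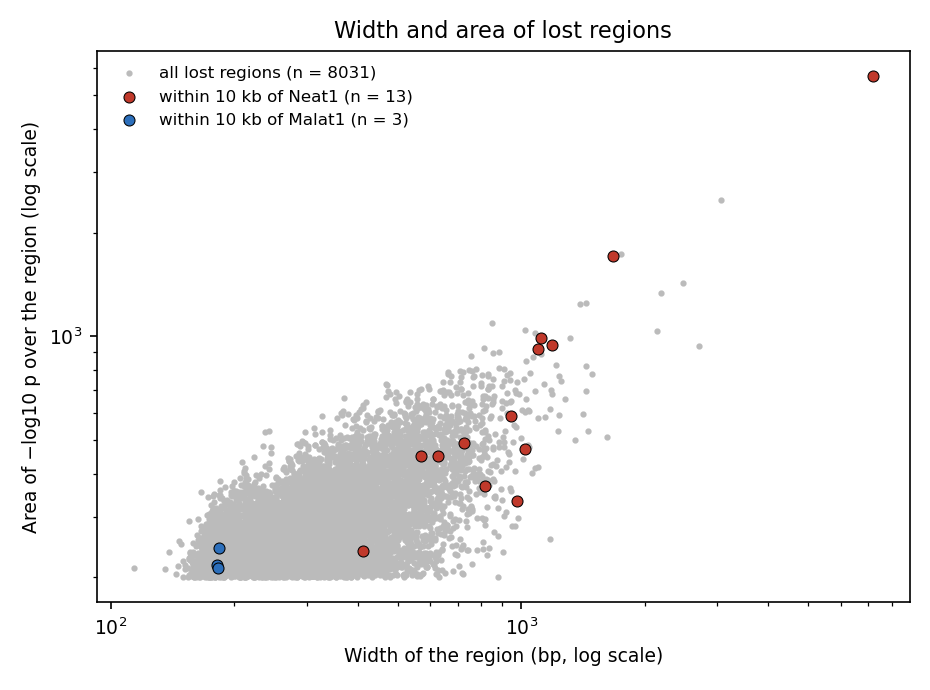
Area of −log10 p against width (bp), both on log scales, for all 8031 RCAs (grey), the 13 near Neat1 (red) and the 3 near Malat1 (blue). The widest Neat1 region, at 7182 bp and 5697, lies beyond all other RCAs on both axes, and the Malat1 regions lie at areas of 213 to 244, above the floor of 200.

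Sequence at the strongest summits is shown so that the letters under the signal can be read. Each stretch has 150 bases around a summit, on the minus strand, with any of the motifs named below in capitals. They come from the regions with the highest and next highest area in Neat1 (chr19:5839465-5839614 and chr19:5833741-5833890), from the region nearest the Neat1 start (chr19:5844274-5844423) and from the Malat1 region with the highest area (chr19:5787171-5787320):
Neat1 widest region: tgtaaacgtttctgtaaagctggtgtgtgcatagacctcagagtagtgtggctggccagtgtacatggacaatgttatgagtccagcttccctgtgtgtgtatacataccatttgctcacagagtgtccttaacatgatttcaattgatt
Neat1 next region: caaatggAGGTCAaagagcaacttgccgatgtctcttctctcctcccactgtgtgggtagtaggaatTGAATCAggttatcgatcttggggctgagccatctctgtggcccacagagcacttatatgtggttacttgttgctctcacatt
Neat1 region nearest the start: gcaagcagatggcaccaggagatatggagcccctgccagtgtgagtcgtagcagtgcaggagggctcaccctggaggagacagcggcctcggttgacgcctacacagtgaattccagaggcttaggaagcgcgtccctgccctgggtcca
Malat1 downstream region: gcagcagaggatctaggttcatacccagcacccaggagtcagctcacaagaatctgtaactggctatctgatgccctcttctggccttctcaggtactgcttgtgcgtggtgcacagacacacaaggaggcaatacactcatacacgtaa
Of these, the next strongest Neat1 region alone held searched motifs, an AGGTCA and a TGANTCA, and the others held none.

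Motifs were searched on both strands in 300 bases centred on each summit, for the 8021 RCAs on assembled chromosomes. AGGTCA, the half-site of thyroid hormone and other nuclear receptors, was in 4 of 13 windows near Neat1 and in 30.0% of all windows. Its direct repeat with a spacer of 4 bases, the classical thyroid hormone element, was in 0 of 13 and in 0.0249% of all. TGANTCA, the AP-1 letters, was in 3 of 13 against 9.80%, CCAAT in 5 against 32.6%, and GGGCGG, the SP1 letters, in 1 against 17.7%. CACGTG (an E-box), TGACGTCA (a cAMP element) and TTGCGCAA (a C/EBP palindrome) were in 0 of 13, against 7.47%, 0.549% and 0.175% of all windows. The hexamer AATAAA was in 1 of 13 windows near Neat1 and 2 of 3 near Malat1, against 18.7%. None of the other 8 motifs was in the 3 windows near Malat1. With 13 and 3 windows, these counts describe the letters present and nothing more.

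Regions and gaps of the run differed in repeat content. Within the run, 11.9% of the bases in RCAs and 33.5% of the bases in the gaps between them were masked as repeats in the reference, with 49.1% and 45.7% G and C. Whether repeats, where short reads can fail the mapping filter, bear on where the regions break off was not tested. None of the 16 regions had a second copy in the genome at 95% identity over 80% of its length. GC content of the regions near Neat1 had a median of 52.8%, against 51.9% over all RCAs, and the ratio of observed to expected CpG a median of 0.266 against 0.273, so base composition was near that of the whole list.

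Within 100 kb on either side, 22 RCAs and 0 Alb-D2KO-only regions were found, and 16 of the 22 are those described above. On the upstream side the nearest protein-coding gene is Frmd8, which codes for a FERM domain protein that stabilises the sheddase cofactor iRhom. An RCA of area 450 lay between its start-distal end and Neat1, from 5849063 to 5849631 in Frmd8os, and one of area 447 lay in its body, from 5873066 to 5873468, 1806 bp from its start. Slc25a45, a mitochondrial carrier gene, had an RCA of area 263 in its body, and that of Tigd3, a gene derived from a transposase, covered the gene start with an area of 263. Dpf2, which codes for a subunit of the BAF chromatin remodelling complex, and Cdc42ep2 had none in the body. On the Malat1 side, Ltbp3, which codes for a TGF-β binding protein of the matrix, had none, and neither did Kcnk7 and Map3k11. Between Ltbp3 and Kcnk7, Ehbp1l1 had an RCA of area 235, and Fam89b and the longer Sssca1 entry shared regions of area 245 and 269 with the antisense gene Gm16538. On the upstream side of Neat1, past Cdc42ep2, Pola2 had 3 RCAs with a summed area of 798, beyond the 100 kb. In all, 7 of 14 protein-coding gene entries reaching into the window had an RCA in the body, against 15.6% of the 22028 protein-coding genes, and none had more than 5.55% of its body covered.

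Genes with the most bases under RCAs give the scale. After Gm20388, a read-through entry of 4434882 bp on chromosome 8 that holds many other genes and had 22507 bp covered, Neat1 was second of 55536 genes. The others of the top 10 were far longer and far less covered. Nfib, which codes for a nuclear factor I protein, had 4280 bp covered in 13 RCAs, 1.03% of its body. Gse1, Rere, Mgll, Gm26694, Zmiz1 and Aldh1l1 had 3878 to 3377 bp, and 1.06% to 3.27% of their bodies. By number of RCAs in the body, 8 genes had 9 or more, Neat1 itself among them.

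Proteins that work with these RNAs were looked at as gene lists, chosen with earlier results of these data known. Of 25 paraspeckle protein genes, 4 had an RCA in the body (16%, 95% Wilson interval 6.40 to 34.7, counting error over genes), next to 15.6% of protein-coding genes. They were Smarca4, an ATPase of chromatin remodelling complexes (2 RCAs, summed area 675), Dazap1, an RNA-binding protein (453), Cpsf6, a subunit of the factor that favours the short Neat1 isoform (286), and Rbmx (254, at its start site). Sfpq, Nono and Pspc1, the core proteins, had none in the body or within 10 kb. Allowing 10 kb, 11 of 25 had an RCA (44%), against 25.0% of protein-coding genes. Added were Srsf10, Tardbp, Cirbp, Nudt21, Taf15, Hnrnpa1 and Rbm14.

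Of 25 nuclear speckle genes, 6 had an RCA in the body (24%, 11.5 to 43.4), against 15.6% of protein-coding genes. Srsf4, Srsf11 and Srsf2, splicing factors of the SR family, had areas of 432, 403 and 267, Acin1 had 387, Srrm2, a scaffold of speckles, had 366 over its start site, and Clk1, a kinase of SR proteins, had 230. None was covered over more than 12.2% of its body, the value of Srsf2. Within 10 kb the count was 11 of 25 (44%), against 25.0%. Of 14 genes of 3′ end processing, Pop5, a protein subunit of RNase P, was the 1 gene with an RCA in the body (area 353, at its start site). The count was 1 of 14 (7.14%), against 15.6% of protein-coding genes, though Rpph1, also listed, is annotated as a ribozyme. Elac2, the tRNA 3′ endonuclease, and Trnt1, which adds CCA ends, had none within 10 kb. Regions open in Alb-D2KO liver alone were found at 0 genes of these lists, 10 kb included, against 0.63% of all annotated genes. With a share that low, a count of 0 in lists of this size says little.

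Most of the other long noncoding RNAs looked at had no RCA in the body. Of 35 with an annotation entry, Lncpint, Pvt1, Airn and Terc had an RCA in the body (11.4%, Wilson interval 4.54 to 26.0), against 6.82% of long noncoding genes. Terc and Rn7sk, both listed, are annotated as misc_RNA, a type that this background leaves out. Lncpint had 4 RCAs with a summed area of 1085 over 1.20% of its body, Pvt1 had 3 with 1065 over 0.349%, and Airn, the imprinted antisense RNA of Igf2r, had 2 with 622 over 0.551%. Terc, the short RNA template of telomerase, had 1 RCA of area 277 over its start site, which covered 66.7% of its short body. Zfas1, Mir22hg, Dleu2 and Mir17hg had an RCA within 10 kb but none in the body. That made 8 of 35 within 10 kb (22.9%), against 15.3% of all annotated genes. Xist, Kcnq1ot1, Meg3 and Gas5 had none in the body or within 10 kb.

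**Figure D5:**
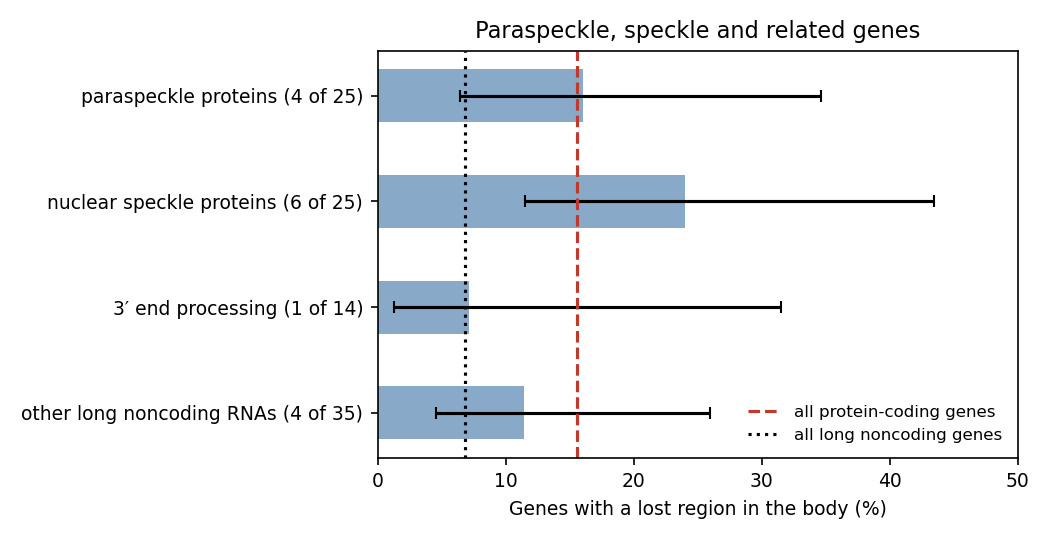
Share of genes with an RCA in the body (%) in the lists of paraspeckle proteins (4 of 25), nuclear speckle proteins (6 of 25), 3′ end processing (1 of 14) and other long noncoding RNAs (4 of 35), with 95% Wilson intervals that cover counting error over genes. Dashed and dotted lines are the shares of all protein-coding (15.6%) and all long noncoding genes (6.82%), which fall inside the intervals of the lists set beside them. Terc, Rn7sk and Rpph1 are listed but are annotated as neither type.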

How the data were processed

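ATAC-seq was measured in 4 control and 4 Alb-D2KO livers of adult C57BL/6 mice. The authors trimmed adapters with NGmerge, aligned reads to mm10 with BWA 0.7.17, dropped alignments that were duplicate, chimeric, supplementary or of low mapping quality, and called open regions with Genrich 0.6 on grouped libraries, ignoring a blacklist merged from the few regions called in single libraries. Regions of a genotype that overlapped none of the other make up the 2 deposited lists. The deposited signal is the area under the curve of −log10 p over a region. The deposited −log10 q is that of its summit, and the score the authors deposited is the area per bp times 1000 with a ceiling of 1000. Scores enter no result given here.

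Starts were shifted to count from 1. Genes came from GENCODE M21 (mm10), while the authors annotated with release M24, and sequence from GRCm38.p6. An overlap of 1 bp assigned a region to a gene. Control regions not lost were counted from gaps in the caller's numbering. Areas rank regions within a list only, since depth is unknown. Base composition and motifs used 8021 RCAs, leaving out 10 on other contigs. Copies were sought with megablast. The overlap code was tested on simulated data. Python 3.11.15, pandas 2.3.3 and Biopython 1.88 were used. Named genes were Neat1, Malat1, Dio2, genes within 100 kb that are protein-coding or hold a region, the 10 genes with most covered bases, and list members with an RCA (at most 8 by area). Genes named beside these were chosen after their values were seen. Members and lists were chosen with earlier results of these data known. Of 36 listed noncoding RNAs, 35 matched by symbol. Pooled calls allow no test between genotypes and no library to be left out. Some genes that the rule names are not reported here.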

Additional observations from a re-analysis of the deposited data

How the results depend on the processing

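The calls are pooled, so leaving out a replicate was not possible, and no value has a replicate error. No paired analysis was possible because the lists hold pooled calls and no value of a single library. At Neat1 the count of 13 RCAs within 10 kb moved to 7 with a summit q under 0.001 and to 6 around the short isoform, and was 9 to 13 under the other settings tried. The covered share of the Neat1 body, 70.2%, was 68.2% with an area of at least 300, 50.1% with a q under 0.001, 68.5% by region midpoint or by summit and 56.9% for the short isoform. At Malat1 the count of 3 fell to 0 with an area of at least 300 and in the body, was 1 within 5 kb and 1 around the short isoform, and 5 within 20 kb, where the run at Neat1 is reached. Alb-D2KO-only regions at both genes, and cover of the Malat1 body, stayed at 0 under each setting run. Most of these settings can only remove regions, so a value of 0 could not move under them. Taking 20 kb on either side left 16 regions lost and 4 kept, as no further RCA lay there to move the ends of that count. An area of at least 300 left 2 of 25 paraspeckle, 4 of 25 speckle and 1 of 14 end-processing genes with an RCA in the body. It left 2 of 35 long noncoding RNAs, 3 of 10 hepatocyte markers and 0 of 10 markers of other cells. The share over all genes at that area is not given here, so these counts describe the lists alone. Within 10 kb there were 11 of 25 paraspeckle (44%), 11 of 25 speckle (44%) and 4 of 14 end-processing genes (28.6%), against 25.0% of protein-coding genes. Of the long noncoding RNAs there were 8 of 35 (22.9%), against 15.3% of all annotated genes. Searching whole regions in place of 300 bases raised the regions near Neat1 with AGGTCA from 4 to 9, TGANTCA from 3 to 6, CCAAT from 5 to 8, GGGCGG from 1 to 4, AATAAA from 1 to 7 and CACGTG from 0 to 2, of 13. The regions near Neat1 are wide, and a whole region of over 300 bases holds more sequence.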
